A study of Mus musculus with 18 samples.

Results

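The 39 protein-coding Hox genes of the mouse, 11 in the Hoxa cluster, 10 in Hoxb, 9 in Hoxc and 9 in Hoxd, were taken by their gene identifiers from 48440 gene identifiers in the RNA count files. They were followed in RNA and in lists of chromatin regions called for macroH2A2, a histone H2A variant that carries a large globular macro domain, while this variant was switched on in mouse fibroblasts. The members were chosen by name, with no measured value.

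All RNA libraries and 7 of the 8 region lists came from 1 cell line, iDF, which was made from dermal fibroblasts of a newborn (P0) male mouse of strain 129/S6, immortalized with SV40 and grown to passages 20 to 30. Its genotype is labelled as a double knockout of macroH2A1 and macroH2A2 with a doxycycline-inducible macroH2A2-GFP transgene, so the controls carry the deletion and the transgene too. RNA was measured without doxycycline (0h) and after 6h and 24h of doxycycline at 0.5 ug/ml, in 3 libraries each. Native ChIP-seq of the GFP-tagged histone, in which chromatin is cut with micrococcal nuclease and not crosslinked, was done at 0h and after 6h, 24h and 5d of doxycycline, with a single library per time. A further library had 24h of doxycycline with 0.5 uM flavopiridol, an inhibitor of the elongation kinase CDK9, during the last 18 hours. GSK126, an inhibitor of the Polycomb methyltransferase Ezh2, was given at 5 uM for 10 days before 6h or 24h of doxycycline in another library each. The last list held H2A.Z, another H2A variant, in untreated wild-type primary dermal fibroblasts of newborn female 129/S6 mice at passage 0 to 1, so it differs from the others in cell type, sex and genotype. Since 1 line was used, p-values measure the spread between replicate libraries of that line.

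Hox genes encode homeodomain transcription factors that give cells their position along the body axis. They lie in 4 clusters, each in the order in which the genes are used from head to tail, so that genes of low number are anterior and genes of high number are posterior. Fibroblasts keep a Hox pattern of their site of origin in culture. Polycomb complexes hold the Hox genes that a cell does not use in a repressed state marked by H3K27 methylation, and trithorax group proteins oppose them.

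The RNA libraries held 29338093 to 37793178 counts over genes. The row of H2afy2, the gene of the induced variant, stood at 9.61 to 25.3 CPM (counts scaled to the size of the library, with TMM factors) at 0h, at 805 to 833 CPM at 6h and at 1713 to 1741 CPM at 24h. Of 12 fibroblast markers 11 passed the filter on low counts and Lum, with 4 counts in all, did not. Their summed level was 14670 to 14870 CPM at 0h, 14570 to 14770 at 6h and 13550 to 14370 at 24h. Of the 11, 3 were called higher and 6 lower at 6h, among them Thy1 at 0.33 (adjusted p = 5.56e-11, edgeR) and Pdgfrb at -0.47 (adjusted p = 7.71e-13) on the log2 scale. Among markers of other cell types Krt5, Cldn5, Emcn, Adgre1, Tyr, Dct, Sox10, Myod1, Myog and Lep had 0 counts in all 9 libraries. The summed level of 6 skeletal muscle markers was 4.36 to 5.57 CPM at 0h, 11.9 to 12.2 CPM at 6h and 3.83 to 4.12 CPM at 24h. This sum moved through Acta1, a gene of the contractile filament. Epcam, a keratinocyte marker, was higher at 6h by 0.83 on the log2 scale (adjusted p = 0.000352, edgeR). The part of such genes in the Hox results was not tested.

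Of the 39 Hox genes, 30 passed the filter and were tested in RNA. The 9 that did not were Hoxa13, Hoxb1, Hoxc12, Hoxd1, Hoxd3, Hoxd10, Hoxd11, Hoxd12 and Hoxd13. Hoxd1, Hoxd10, Hoxd11, Hoxd12 and Hoxd13 had 0 counts in every library, where 3 counts correspond to 0.0794 to 0.102 CPM. Hoxb1, an anterior gene of the hindbrain, had 2 counts over all libraries, and Hoxc12, a posterior gene, had 30. So the line carried RNA of most Hoxa, Hoxb and Hoxc genes, and of the Hoxd cluster only Hoxd4, Hoxd8 and Hoxd9 passed. Levels here are not per gene length, so they are compared between libraries and not between genes. In such bulk libraries, fewer cells that use a gene and less RNA per cell cannot be told apart.

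After 6h of doxycycline, 8 Hox genes had fallen and 1 had risen in RNA. Those lower were Hoxa7, Hoxa10, Hoxb8, Hoxb9, Hoxb13, Hoxc6, Hoxc8 and Hoxc9, and Hoxb7 was higher. They were 9 of 30 tested Hox genes. By direction, 26.7% of the tested Hox genes were called lower, beside 18.2% of all 13785 genes tested, and 3.33% were called higher, beside 20.8%. The median log2 change of the 30 genes was -0.14, beside 0.0067 over all genes. Calls are adjusted p under 0.05 in edgeR's quasi-likelihood test with Benjamini-Hochberg adjustment over all genes, with no minimum fold, and the errors of log2 changes below are SE.

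In Hoxc, the neighbours Hoxc6, Hoxc8 and Hoxc9 fell at 6h. Hoxc9, which acts in thoracic patterning, stood at 58.1, 51.9 and 53.8 CPM in the 0h libraries, at 40.3, 38.9 and 42.2 at 6h and at 51.4, 49.0 and 51.6 at 24h. Every 6h library lay below every library of the other time points. At 6h the log2 change of Hoxc9 was -0.43 ± 0.04 (adjusted p = 3.02e-09, edgeR) and from 6h to 24h it was 0.33 ± 0.04 (adjusted p = 6.87e-07). Hoxc6 measured 57.3, 53.9 and 60.8 CPM at 0h, 44.0, 47.3 and 47.2 at 6h and 56.6, 53.5 and 57.0 at 24h. Its 6h libraries were again the lowest, with a fall of 0.31 ± 0.04 (adjusted p = 7.32e-07, edgeR) and a rise of 0.28 ± 0.04 afterwards (adjusted p = 7.83e-06). Hoxc8 measured 68.4, 60.9 and 64.1 CPM at 0h, 51.1, 55.3 and 56.3 at 6h and 64.8, 64.7 and 65.4 at 24h. It fell by 0.25 ± 0.04 (adjusted p = 9.64e-06, edgeR) and rose by 0.26 ± 0.04 (adjusted p = 6.99e-06), with no overlap between 6h and the other times.

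In Hoxb and Hoxa the same time course was seen in Hoxb9, Hoxb13 and Hoxa7. Hoxb9, a paralog of Hoxc9, measured 127, 129 and 130 CPM at 0h, 110, 111 and 112 at 6h and 126, 131 and 125 at 24h. The 6h libraries lay apart from all others, with a fall of 0.21 ± 0.03 (adjusted p = 4.31e-07, edgeR) and a rise of 0.20 ± 0.03 (adjusted p = 1.87e-06). Hoxa7 measured 30.6, 27.8 and 27.0 CPM at 0h, 25.6, 24.4 and 25.0 at 6h and 28.0, 28.7 and 28.9 at 24h. It fell by 0.19 ± 0.05 (adjusted p = 0.0037, edgeR) and rose by 0.19 ± 0.05 (adjusted p = 0.0037), and the 6h libraries did not overlap the others. Hoxb13, the gene at the posterior end of its cluster, had only 45, 33 and 38 counts at 0h, 27, 24 and 25 at 6h and 41, 42 and 41 at 24h. Its log2 change was the largest among the called Hox genes, -0.58 ± 0.23 at 6h (adjusted p = 0.0455, edgeR) and 0.71 ± 0.23 from 6h to 24h (adjusted p = 0.0156), with the widest error of them.

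Hoxb8 and Hoxa10 were lower at 6h and were not called afterwards, and Hoxb7 moved the other way. Hoxb8 measured 14.0, 13.5 and 14.6 CPM at 0h, 12.4, 11.5 and 12.5 at 6h and 12.8, 13.5 and 14.1 at 24h, a log2 change of -0.21 ± 0.07 at 6h (adjusted p = 0.0123, edgeR). Hoxa10 measured 20.0, 18.8 and 18.5 CPM at 0h, 17.5, 17.2 and 16.8 at 6h and 17.4, 19.8 and 18.0 at 24h, a change of -0.16 ± 0.06 (adjusted p = 0.0369, edgeR). Hoxb7, which lies next to Hoxb8, measured 13.0, 13.1 and 13.7 CPM at 0h, 15.7, 15.1 and 14.3 at 6h and 13.9, 14.9 and 15.2 at 24h. It rose by 0.19 ± 0.06 (adjusted p = 0.0198, edgeR), and its 24h libraries overlapped those of 6h. For these 3 genes the libraries of 0h and 6h did not overlap.

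Hoxb9, Hoxc6, Hoxc8 and Hoxc9 were called lower at 6h under all 17 alternatives of the test. The other 5 calls at 6h were each lost without 1 library or another. Hoxa7 was lost without 0h replicate 1 (adjusted p = 0.0533, edgeR) and Hoxb8 without 0h replicate 3 or 6h replicate 2 (0.062 and 0.0674). Hoxb7 was lost without 0h replicate 1 or 2 or 6h replicate 1 (0.0682, 0.0609 and 0.102). Hoxa10 was lost without any 1 of 0h replicates 1 and 2 and the 3 replicates of 6h (0.055 to 0.173). Hoxb13 was lost without 0h replicate 1 or 3, any replicate of 6h or 24h replicate 3 (0.0509 to 0.167). DESeq2 called 6 of the 8 falls and not the rise of Hoxb7.

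At 24h no Hox gene was called against 0h, beside 4.17% of all genes called higher and 2.87% called lower. Of the 30 tested, 3 were higher and 4 lower at an unadjusted p under 0.05 in edgeR, and DESeq2 called 0. Over all genes, 2693 of 13785 were under this unadjusted p in either direction. The median log2 change was -0.0151, beside -0.0017 over all genes. Hoxa5 came nearest to the threshold, with 8.07, 6.72 and 6.55 CPM at 0h and 6.06, 5.52 and 5.43 at 24h, a log2 change of -0.33 ± 0.11 (adjusted p = 0.084, edgeR). Those libraries did not overlap, and without the filter on low counts Hoxa5 was called lower (adjusted p = 0.0313, edgeR).

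**Figure D1:**
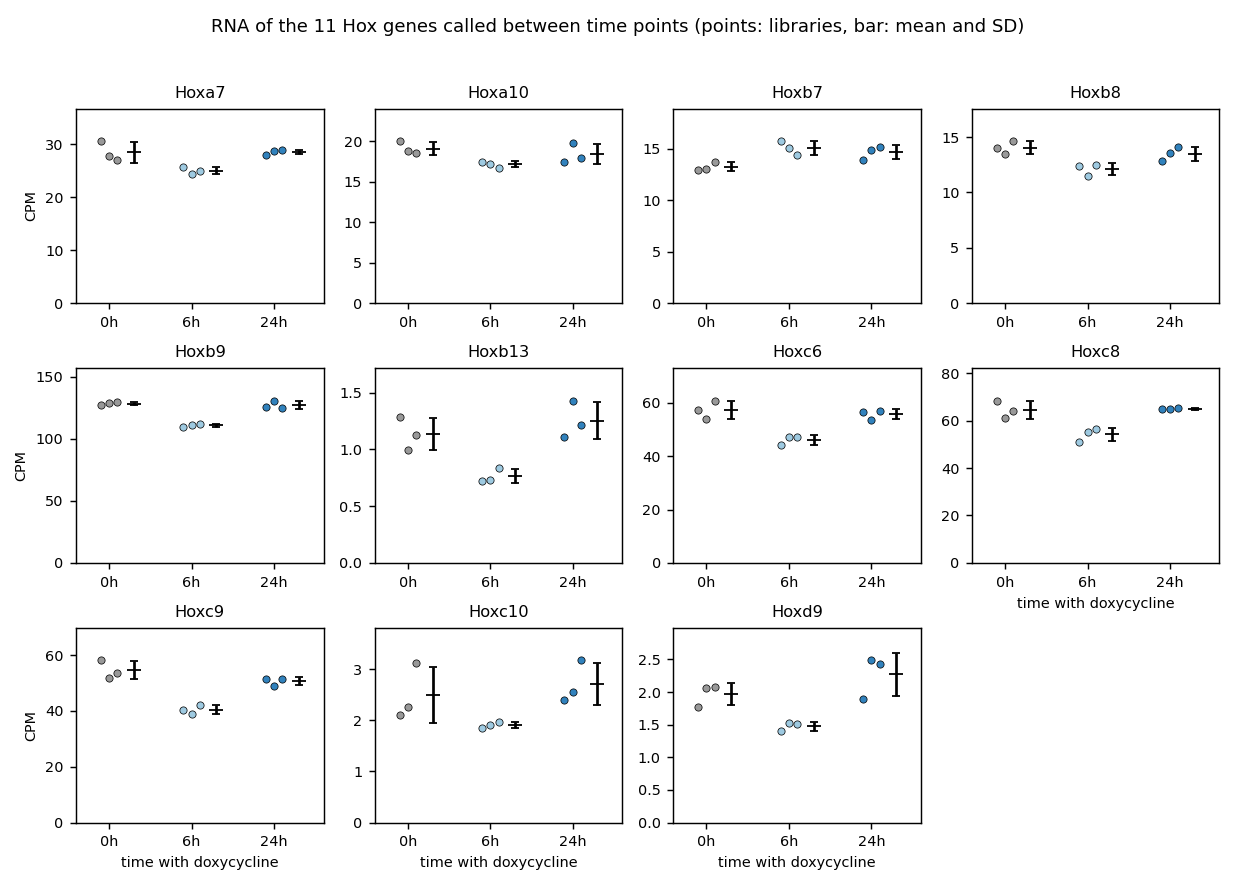
RNA level in CPM (y axes, from 0, a separate scale for each gene) against time with doxycycline for the 11 Hox genes called between time points; points are single libraries, bars the mean and SD of 3. In 10 of the panels the 6h libraries lie lowest in mean, and in the Hoxb7 panel they lie above 0h.

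Between 6h and 24h, 8 Hox genes rose and none fell. They were 26.7% of the 30 tested, beside 17.4% of all genes called higher, and 0 were called lower, beside 18.8%. At an unadjusted p under 0.05 in edgeR, 9 Hox genes were higher and 0 lower, beside 6022 of 13785 genes in either direction. DESeq2 called 6 Hox genes higher and 0 lower. Of the 8 that had fallen at 6h, 6 were among those that rose: Hoxa7, Hoxb9, Hoxb13, Hoxc6, Hoxc8 and Hoxc9. Both comparisons use the 6h libraries, so this overlap is given as a count only.

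Hoxc10 and Hoxd9 rose from 6h to 24h without a call at 6h. Hoxc10, a hindlimb and lumbar gene, measured 2.11, 2.27 and 3.13 CPM at 0h, 1.85, 1.92 and 1.98 at 6h and 2.41, 2.55 and 3.18 at 24h. Its log2 change was 0.50 ± 0.17 from 6h to 24h (adjusted p = 0.0205, edgeR), and these libraries did not overlap. Hoxd9, a paralog of Hoxb9 and Hoxc9, measured 1.77, 2.06 and 2.08 CPM at 0h, 1.40, 1.52 and 1.51 at 6h and 1.89, 2.49 and 2.43 at 24h. It rose by 0.62 ± 0.17 (adjusted p = 0.00601, edgeR), again without overlap. Leaving out 6h replicate 1 or 24h replicate 3 took the call from Hoxc10 (adjusted p = 0.0683 and 0.13, edgeR). Leaving out 6h replicate 1 or 24h replicate 2 took that of Hoxb13 (0.056 and 0.0704). Hoxa13, which failed the filter, had 4, 7 and 8 counts at 0h, 4, 4 and 5 at 6h and 14, 11 and 10 at 24h. Without the filter on low counts it was called higher from 6h to 24h, with a log2 change of 1.40 (adjusted p = 0.0435, edgeR), and it was tested and called in 6 of the 9 fits that left out a library. Over those 9 fits 7 to 10 Hox genes were called higher from 6h to 24h.

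Calls by position along the clusters stand beside 20.8% of all genes higher and 18.2% lower at 6h and 17.4% higher from 6h to 24h. No gene of paralog groups 1 to 4 was called in any comparison of the main fit, out of 9 tested. Under alternatives, Hoxb3 was called lower at 6h with upper-quartile scaling (adjusted p = 0.0448, edgeR). Hoxa3 was called higher from 6h to 24h without 6h replicate 2 (adjusted p = 0.0473, edgeR). With unstranded counts Hoxb2 was called higher at 24h against 0h (adjusted p = 0.0226, edgeR). In groups 5 to 8, 1 gene rose and 4 fell at 6h out of 11, and 3 rose from 6h to 24h. In groups 9 to 13, 4 of 10 fell at 6h and 5 rose from 6h to 24h. The anterior genes Hoxc4 and Hoxc5 had log2 changes of 0.0019 ± 0.06 and 0.0124 ± 0.05 at 6h. By cluster, the calls at 6h were 2 lower of 10 in Hoxa, 3 lower and 1 higher of 9 in Hoxb, 3 lower of 8 in Hoxc and 0 of 3 in Hoxd. Differences between these classes were not tested.

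**Figure D2:**
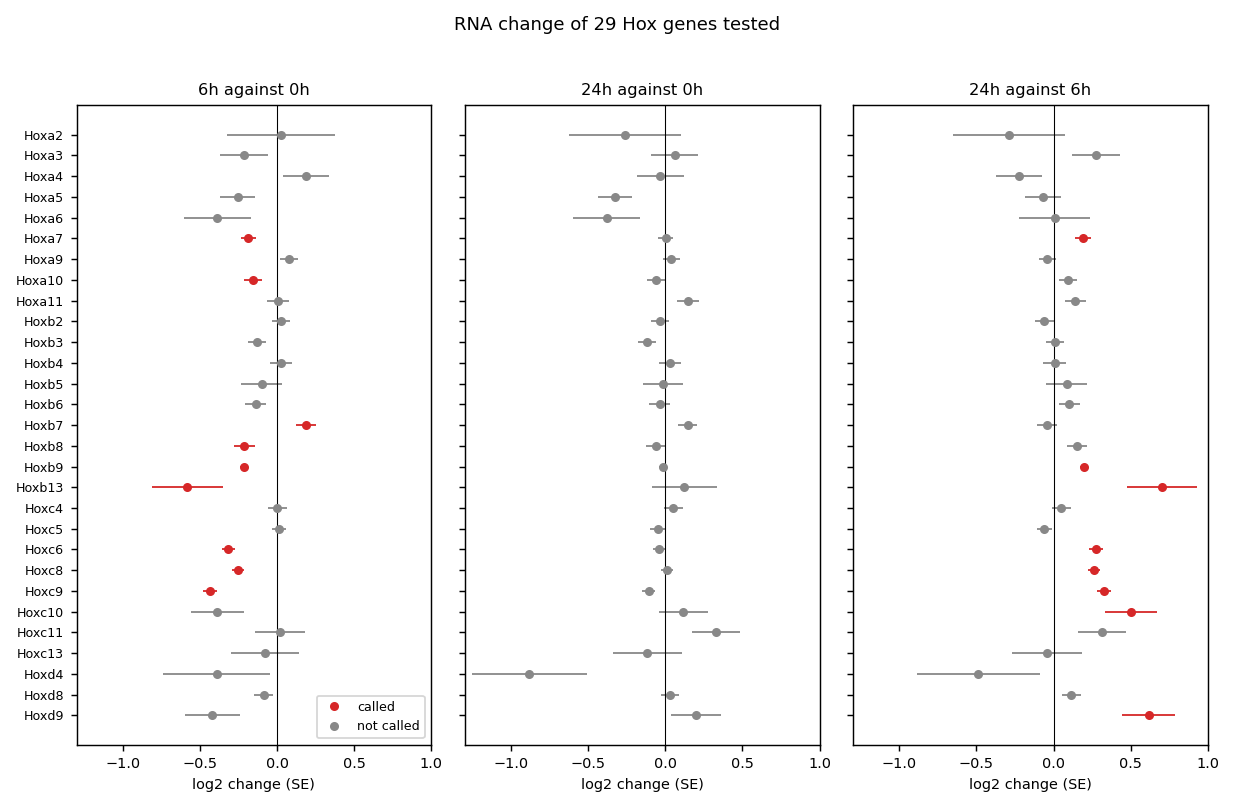
Log2 change in RNA (x axes, with SE) of 29 tested Hox genes (y axis) between time points, from edgeR; red points are called and grey points are not. The called genes lie left of 0 at 6h except Hoxb7, none is called at 24h against 0h, and all 8 called from 6h to 24h lie right of 0.

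Regulators of Hox genes were read from lists of their own, beside 20.8% of all genes called higher and 18.2% lower at 6h and 17.4% higher and 18.8% lower from 6h to 24h. Of 23 Polycomb genes, 2 were higher and 10 lower at 6h, and 7 were higher and 4 lower from 6h to 24h. Cbx6, a chromodomain subunit of Polycomb complex 1, changed by -0.23 at 6h (adjusted p = 9e-08, edgeR), and Ezh2, the methyltransferase that GSK126 inhibits, by 0.16 (adjusted p = 0.000411). Of 14 trithorax and related genes 5 were higher and 2 lower at 6h. Among these Kdm6b, which removes H3K27 methylation, changed by 0.37 (adjusted p = 1.19e-07, edgeR) and Men1, a partner of the Kmt2a methyltransferase, by -0.28 (adjusted p = 3.69e-07).

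Other patterning genes and the surroundings of the clusters were counted in the same way, beside the same shares of all genes. Of 8 tested positional homeobox and T-box genes outside the clusters, 1 was higher and 4 lower at 6h, and 3 were higher and 1 lower from 6h to 24h. Prrx2, a homeobox gene of limb and dermal mesenchyme, changed by -0.69 at 6h (adjusted p = 1.33e-09, edgeR) and by 0.52 afterwards (adjusted p = 3.27e-07). Of 16 tested protein-coding neighbours of the clusters, 4 were higher and 2 lower at 6h. Of 8 tested noncoding genes in or beside the clusters, only Hoxb3os, which lies opposite Hoxb3, was called at 6h, at 0.56 (adjusted p = 0.00712, edgeR). Hoxb3 itself changed by -0.13 ± 0.06 at 6h (adjusted p = 0.0703, edgeR).

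The regions were called by the authors with SICER on 1 library per condition, so what follows describes these libraries, without tests. A gene counts as covered when 50% or more of its bases lie in regions. Covered Hox genes numbered 5 of 39 at 0h, 6 at 6h, 7 at 24h and 6 at 5d, beside 3.33%, 11.1%, 8.68% and 6.59% of 21883 protein-coding genes. Those at 24h were Hoxb13, Hoxc10, Hoxc11, Hoxc12, Hoxc13, Hoxd10 and Hoxd13. All 7 belong to paralog groups 10 to 13. Of them 4 lie on chromosome 15, where 26.7% of protein-coding genes were covered, beside 14.9% on chromosome 11 and 8.14% on chromosome 2. In RNA, 4 of the 7 were tested (Hoxb13, Hoxc10, Hoxc11 and Hoxc13) and 3 failed the filter. No gene from Hoxa was covered, beside 5.95% on chromosome 6. Spans of some genes share bases, since Hoxa3 holds Hoxa4, Hoxa5 and Hoxa6, Hoxb3 holds Hoxb4, Hoxd3 holds Hoxd4, and Hoxd11 shares 2744 bases with Hoxd10.

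**Figure D3:**
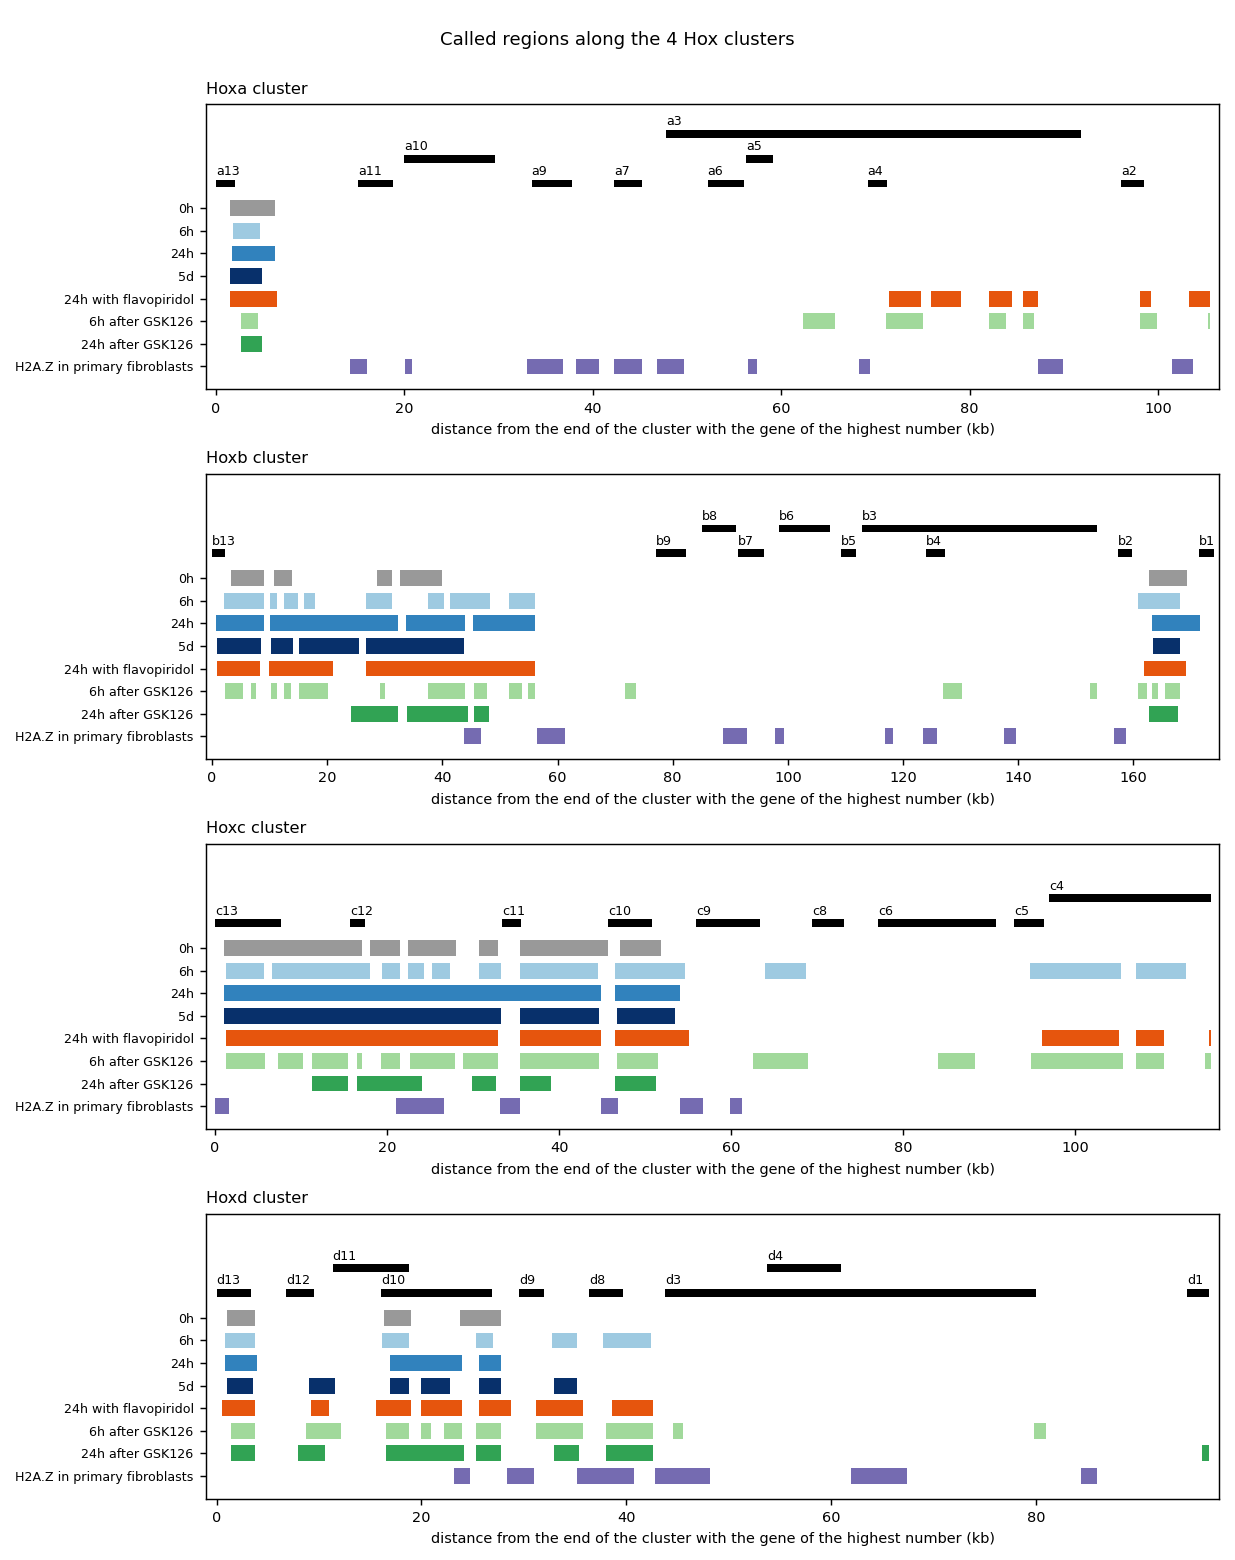
Called regions (coloured bars, 1 row per library) along the 4 clusters, with genes as black bars above and distance in kb from the posterior end on the x axes. Regions of the macroH2A2-GFP libraries lie mostly at the posterior ends of Hoxc and Hoxd and between Hoxb13 and Hoxb9. Those of H2A.Z lie mostly elsewhere, though less so in Hoxc.

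Hoxc, on chromosome 15, was the most covered cluster in the 6 macroH2A2-GFP libraries other than 24h after GSK126. End to end, regions covered 36.5% of it at 0h, 54.1% at 6h, 44.4% at 24h and 41.7% at 5d, beside 7.39%, 14.1%, 13.3% and 12.9% of the genome. Chromosome 15 as a whole stood at 26.2% at 0h, 34.6% at 6h, 33.3% at 24h and 32.5% at 5d, so much of this height was shared with the chromosome. At 24h the 100 kb beside the cluster stood at 93.7% at lower and 58.7% at higher coordinates, both above Hoxc itself. All 6 Hoxc regions at 0h had the lowest score, 1, and without such regions Hoxc stood at 0% at 0h, 17.1% at 6h, 37.9% at 24h and 35.8% at 5d, so the order of 6h and 24h turned. At 24h a single region, chr15:102922201-102966000, ran from Hoxc13 through Hoxc12 and Hoxc11 to just before Hoxc10, and a second covered most of Hoxc10. The second ended 1.83 kb before Hoxc9, the gene with the largest fall in RNA among those tested in the cluster. Between Hoxc9 and Hoxc4 no base was covered at 24h.

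The anterior end of Hoxc was covered at 6h by regions of the lowest score, 1, and clear at 24h. Hoxc4, an anterior gene, was covered at 0% at 0h, 75.2% at 6h, 0% at 24h and 0% at 5d. Hoxc5 beside it went from 47.6% at 6h to 0% at 24h. Without the regions of score 1 both were at 0% at 6h too. Neither was called in RNA in any comparison. Hoxc4 measured 18.3, 19.3 and 20.6 CPM at 0h, 20.6, 19.5 and 18.0 at 6h and 19.1, 21.7 and 19.7 at 24h. At the posterior end Hoxc11 was covered at 4.64% in all 7 macroH2A2-GFP libraries except that of 24h, where it was at 100%. Hoxc13 was covered at 86.1%, 70.5%, 86.1% and 86.1% at 0h, 6h, 24h and 5d, Hoxc12 at 77.1% at 0h and 100% at the other 3 times, and Hoxc10 at 72.6% at 0h and 80.3 to 84.2% afterwards. Without the regions of score 1, all 4 of these genes were at 0% at 0h, Hoxc12 and Hoxc13 were at 0% at 6h, and Hoxc10 was at 84.2% at 6h and 0% at 24h and 5d.

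Hoxd, on chromosome 2, was covered at 9.70%, 14.7%, 12.8% and 14.7% at 0h, 6h, 24h and 5d, beside 10.2%, 19.4%, 17.8% and 17.6% of its chromosome. Hoxd13 was covered at 71.1%, 77.0%, 77.0% and 71.1% and Hoxd10 at 52.7%, 37.9%, 76.7% and 54.5% in these libraries. Both are genes of distal limb and tail, and neither had an RNA count. Without the regions of score 1 both were at 0% at 0h, and Hoxd13 also at 6h. Hoxd8, which had RNA, was covered at 58.2% at 6h and 0% at 0h, 24h and 5d, and that region had a score above the lowest. Hoxd3, Hoxd4 and Hoxd1 were free of regions at all 4 times. The 100 kb on either side of Hoxd stood at 11.6% and 11.8% at 24h.

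In Hoxb, on chromosome 11, the regions of the time course lay outside the row from Hoxb9 to Hoxb2. The cluster was covered at 14.6%, 22.3%, 34.4% and 25.0% at 0h, 6h, 24h and 5d, beside 9.65%, 19.9%, 18.9% and 17.3% of its chromosome. The 100 kb on either side of Hoxb stood higher than the cluster at 24h, at 86.8% and 64.45%. At 24h regions covered 66.9% of the long stretch between Hoxb13 and Hoxb9 and ended 20.9 kb before Hoxb9. Hoxb13 went from 0% at 0h and 9.15% at 6h to 70.2% at 24h and 61.4% at 5d. From Hoxb9 to Hoxb2 no base was covered at 0h, 6h, 24h or 5d, and between Hoxb2 and Hoxb1 coverage was 56.3%, 61.4%, 69.5% and 39.2%. Hoxa held 1 region at each of these times, which covered part of Hoxa13 and of the stretch towards Hoxa11, and 2.65 to 4.55% of the cluster in all. The 100 kb on either side of Hoxa stood at 38.8% and 22.4% at 24h.

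Over the 4 clusters together, 492 kb in length, regions covered 81.8 kb at 0h, 118 kb at 6h, 128 kb at 24h and 109 kb at 5d. Of the 128 kb covered at 24h, 77.0 kb (60.1%) lay in regions of the 0h library too, and they were 94.1% of what that library covered. Without the regions of the lowest score, 13.0 kb of 99.6 kb (13.1%) at 24h was shared with 0h, and the 0h library covered 13.2 kb in all. With all regions kept, the share by cluster was 39.8% in Hoxb, 58.1% in Hoxd, 80.5% in Hoxc and 100% in Hoxa. Without those of the lowest score, no base of Hoxc was covered at 0h. The 0h library had no doxycycline, and the H2afy2 row was low but above 0 in RNA at that time. Against 0h, Hoxb13 and Hoxc11 had gained 50 points or more at 24h, beside 2.95% of protein-coding genes, and none had lost as much, beside 0.105%. From 6h to 24h the same 2 genes gained and Hoxc4 and Hoxd8 lost 50 points or more, beside 2.21% and 5.98% of protein-coding genes. From 24h to 5d Hoxc11 alone lost as much, beside 1.37%, and none gained, beside 0.388%.

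**Figure D4:**
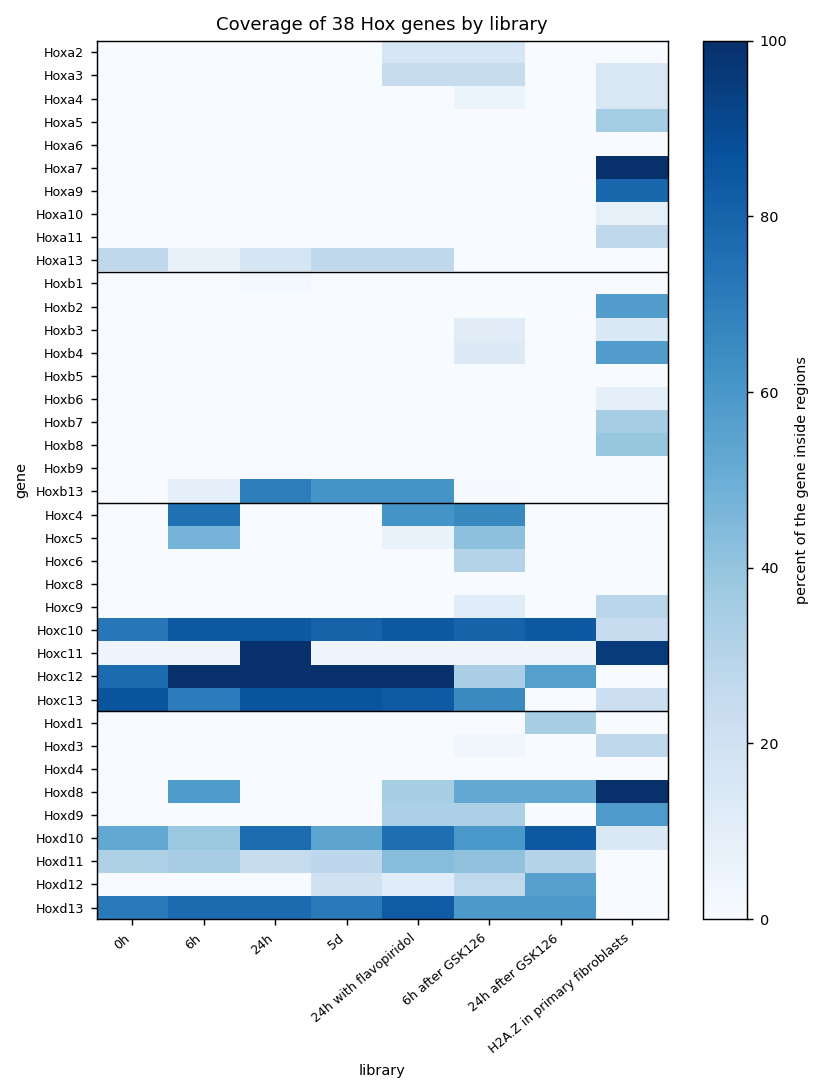
Percent of each of 38 Hox genes (y axis, in order of number within clusters) inside regions, by library (x axis), from white at 0 to dark blue at 100. At 24h the genes at 50% or more are all of numbers 10 to 13 in Hoxb, Hoxc and Hoxd, Hoxc4 and Hoxd8 pass 50% at 6h and are at 0% at 24h, and the H2A.Z column is high in other genes, save Hoxc11.

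With flavopiridol at 24h, regions reached into genes that were at 0% at 24h without it. Among them were anterior genes and the posterior genes Hoxd9 and Hoxd12 (Hoxd12 at 11.3%). Hoxc4 was covered at 61.6%, against 0% at 24h without the inhibitor and 75.2% at 6h. Hoxd8 stood at 34.1% and Hoxd9 at 33.0%, both at 0% at 24h without it. Hoxa2 and Hoxa3 stood at 15.9% and 24.1%, against 0% in all 4 libraries of the time course. These genes were also covered in part at 6h after GSK126, Hoxd8 at 52.2%, Hoxd9 at 33.0%, Hoxa2 at 15.9% and Hoxa3 at 23.6%. Hoxd8 was at 58.2% at 6h without an inhibitor. End to end, Hoxa went from 4.36 to 18.0%, Hoxd from 12.8 to 25.0% and Hoxc from 44.4 to 53.6%, while Hoxb stood at 34.4 and 31.7% and the genome at 13.3 and 14.1%. The regions over Hoxc4 had the lowest score: without such regions Hoxc4 was at 0% with flavopiridol and Hoxc went from 37.9 to 35.4%, while the values of Hoxa2, Hoxa3, Hoxd8 and Hoxd9 did not move. Without those regions Hoxb was more covered with flavopiridol than without it. One Hox gene gained 50 points or more, Hoxc4, beside 3.13% of protein-coding genes, and 1 lost as much, Hoxc11, beside 0.800%. Covered Hox genes numbered 7 in both libraries, beside 11.8% of all genes with flavopiridol. RNA under flavopiridol was not analysed here.

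After GSK126, Hoxb and Hoxc were less covered at 24h and Hoxd more. Hoxc stood at 19.9% beside 44.4% without GSK126, while chromosome 15 stood at 30.6% beside 33.3%. Hoxb stood at 15.2% beside 34.4%, with chromosome 11 at 16.4% beside 18.9%, and Hoxa at 2.09% beside 4.36%. Hoxd stood at 23.5% beside 12.8%, with chromosome 2 at 17.3% beside 17.8%. These cluster values moved by more than those of their chromosomes, which are far longer spans. The 100 kb on either side of Hoxd also rose, from 11.6 to 22.4% and from 11.8 to 38.9%. Beside Hoxb the 100 kb went from 86.8 to 73.1% and from 64.45 to 59.65%, and beside Hoxc from 93.7 to 91.9% and from 58.7 to 60.5%. Whether GSK126 acted on the clusters apart from their surroundings was not tested. Of 128 kb covered at 24h, 62.0 kb (48.4%) was also covered after GSK126, which was 83.4% of the smaller coverage there. Without the regions of the lowest score, 24.0 kb of 99.6 kb (24.1%) was shared.

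Gene by gene, Hoxb13 went from 70.2 to 0%, Hoxc13 from 86.1 to 0% and Hoxc11 from 100 to 4.64% with GSK126 at 24h, and Hoxc12 from 100 to 56.6%. Hoxc10 was at 84.2% in both libraries. All 5 Hoxc regions after GSK126 at 24h had the lowest score. Covered Hox genes numbered 6 there, beside 5.90% of all genes, and 6 at 6h after GSK126, beside 12.3%. The 3 genes that lost 50 points or more stand beside 1.67% of protein-coding genes that did. Hoxd12 went from 0 to 55.9%, Hoxd8 from 0 to 52.2% and Hoxd1 from 0 to 34.3%, and the first 2 of these stand beside 0.334% that gained 50 points. Without the regions of the lowest score Hoxd1 was at 0% there, and Hoxd12 and Hoxd8 kept their values. At 6h, with and without GSK126, Hoxc stood at 54.3 and 54.1% and Hoxb at 20.7 and 22.3%, while Hoxd stood at 25.4 and 14.7% and Hoxa at 13.5 and 2.65%. Without the regions of the lowest score, Hoxc stood at 6.39 and 17.1% at 6h, and at 24h at 0 and 37.9%. The only Hox gene that moved by 50 points at 6h was Hoxc12, from 100 to 33.6%, beside 0.832% of genes lower and 1.17% higher. Hoxc6 was at 30.8% and Hoxa3 at 23.6% in the library of 6h after GSK126, and both were at 0% at 6h without GSK126. Without the regions of the lowest score Hoxc6 was at 0% there too, and Hoxa3 kept its value.

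**Figure D5:**
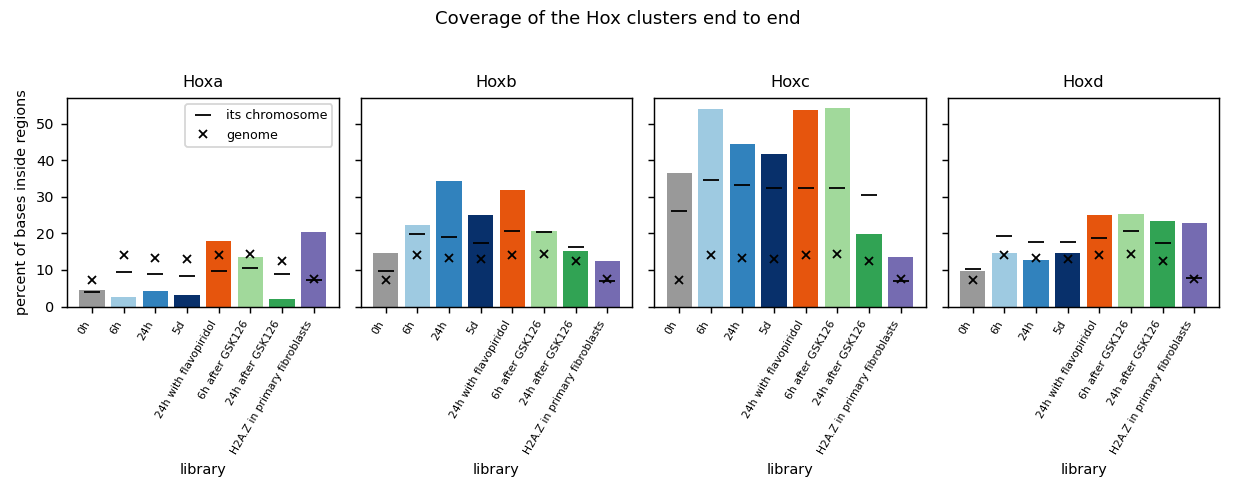
Percent of bases inside regions (y axis, from 0) for each cluster end to end, by library (x axes); dashes give the chromosome that holds the cluster and crosses the genome. Hoxc stands at 19.9% at 24h after GSK126 beside 44.4% without it, and Hoxd at 23.5% beside 12.8%.

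The microRNA genes of the clusters were followed with the Hox genes, because miR-196 targets Hox transcripts, that of Hoxb8 among them. Their mature sequences are shown from RefSeq (GRCm38.p6), 5′ to 3′, with the seed (bases 2 to 8) in capitals, since the 4 fall into 2 seed families.
mmu-miR-196a-5p: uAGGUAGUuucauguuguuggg
mmu-miR-196b-5p: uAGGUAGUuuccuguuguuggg
mmu-miR-10a-5p: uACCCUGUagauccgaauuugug
mmu-miR-10b-5p: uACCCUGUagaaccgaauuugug
The same mature miR-196a-5p comes from 2 hairpins, Mir196a-1 in Hoxb and Mir196a-2 in Hoxc. Mir196a-2, between Hoxc10 and Hoxc9, was covered at 100% at 6h, 24h, 5d and 24h with flavopiridol, and at 0% at 0h and in both libraries after GSK126. The hairpin starts at chr15:102973350, near the end of the region over Hoxc10. That region ended at 102973000 at 0h, and after GSK126 at 102972600 at 6h and 102972400 at 24h. Regions over the hairpin at 24h, 5d and with flavopiridol had the lowest score, 1, and that at 6h had a score of 2. Mir196a-1, Mir196b, Mir10a and Mir10b were at 0% in all 8 lists. Poly(A) libraries do not measure mature microRNAs, so no level is given for them.

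Start sites were read apart from gene bodies. Windows of 1 kb on each side of the outermost RefSeq start were covered by 50% or more in 3 of 39 Hox genes at 24h (Hoxb1, Hoxc11 and Hoxc12), beside 8.92% of 17491 protein-coding genes. At 5d this held for 2 of 39 (Hoxc12 and Hoxd11), beside 6.50%. RefSeq start windows, from 250 bases before a start to 50 after, were at hand for 22 of the 39 genes in 24 windows. The 4 genes that the rule on sequences picked, Hoxb7, Hoxb13, Hoxc11 and Hoxc12, were not among them. The windows of 4 other genes are shown, which were chosen after their values were seen: Hoxd10, Hoxd11 and Hoxb1, whose windows regions reached and whose genes had 0 to 2 RNA counts, and Hoxb8, which fell in RNA at 6h and whose window no region reached.

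They are written 5′ to 3′ on the plus strand of GRCm38.p6, and capitals mark matches on either strand to TATAAA (the TATA box), to CCAAT (the CCAAT box), to GGGCGG (a GC box) and to TGATNNAT (a form bound by Pbx with Hox). Hoxd10 is chr2:74691641-74691940, Hoxd11 chr2:74679308-74679607, Hoxb1 chr11:96365508-96365807 and Hoxb8 chr11:96281655-96281954.
Hoxd10: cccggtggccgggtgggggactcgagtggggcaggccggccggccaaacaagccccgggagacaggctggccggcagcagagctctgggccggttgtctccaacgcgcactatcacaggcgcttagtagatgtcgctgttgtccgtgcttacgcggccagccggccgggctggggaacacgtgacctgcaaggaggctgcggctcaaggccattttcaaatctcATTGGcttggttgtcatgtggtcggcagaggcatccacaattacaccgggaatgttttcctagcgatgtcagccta
Hoxd11: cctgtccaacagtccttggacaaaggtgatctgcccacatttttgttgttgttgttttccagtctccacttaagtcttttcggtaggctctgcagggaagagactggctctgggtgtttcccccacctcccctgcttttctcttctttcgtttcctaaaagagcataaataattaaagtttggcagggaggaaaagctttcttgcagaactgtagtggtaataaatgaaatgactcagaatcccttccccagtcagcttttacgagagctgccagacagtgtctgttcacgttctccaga
Hoxb1: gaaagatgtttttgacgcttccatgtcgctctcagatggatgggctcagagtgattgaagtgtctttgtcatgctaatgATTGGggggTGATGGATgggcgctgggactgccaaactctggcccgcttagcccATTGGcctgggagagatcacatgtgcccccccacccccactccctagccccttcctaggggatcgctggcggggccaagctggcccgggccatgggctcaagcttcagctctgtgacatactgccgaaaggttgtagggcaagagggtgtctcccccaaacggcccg
Hoxb8: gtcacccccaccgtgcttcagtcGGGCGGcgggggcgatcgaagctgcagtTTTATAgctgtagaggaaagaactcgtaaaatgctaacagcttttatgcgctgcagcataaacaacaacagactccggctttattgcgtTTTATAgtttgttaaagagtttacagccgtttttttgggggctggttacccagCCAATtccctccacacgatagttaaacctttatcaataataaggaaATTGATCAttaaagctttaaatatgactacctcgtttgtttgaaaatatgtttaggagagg
The windows shown for Hoxd10 and Hoxb8 are at inner starts and so not those counted above. That of Hoxd10 was inside regions at 24h, with flavopiridol and after GSK126 at 6h and 24h, and inside an H2A.Z region of the primary cells. That of Hoxd11 was covered at 5d and at 6h after GSK126, and that of Hoxb1 at 97.7% at 24h only. The Hoxd10 window holds 22 CpG pairs and 62.7% G and C, that of Hoxd11 only 4 pairs and 45.7%, that of Hoxb1 10 and 59.3% and that of Hoxb8 13 and 42.3%. Over the 24 Hox windows the median was 14.5 CpG pairs, beside 7 over 32851 windows of all genes. TATAAA was found in 4 of the 24 Hox windows (13.6% of all windows), CCAAT in 15 (37.4%), GGGCGG in 10 (35.7%) and TGATNNAT in 4 (8.85%). The TGATNNAT matches lie in windows of Hoxb1, Hoxb8, Hoxa2 and Hoxd11, for Hoxd11 in its other window, which is not shown. A match says only that these letters are present.

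H2A.Z of the primary fibroblasts lay mostly outside the 24h regions of macroH2A2-GFP, except in Hoxc when regions of the lowest score were kept. Start windows were covered by H2A.Z at 50% or more in 16 of 39 Hox genes, beside 53.2% of protein-coding genes. Of these 16, 15 were among the 30 genes tested in RNA of the iDF line and 1, Hoxd3, was among the 9 that were not. Hoxb7, Hoxd8 and Hoxd9 were covered over the whole start window. Gene bodies covered were Hoxa7, Hoxa9, Hoxb2, Hoxb4, Hoxc11, Hoxd8 and Hoxd9, which is 7 of 39, beside 4.69% of all genes. End to end H2A.Z covered 20.5% of Hoxa, 12.4% of Hoxb, 13.5% of Hoxc and 22.9% of Hoxd, beside 7.45% of the genome.

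H2A.Z and the 24h regions shared 11.4 kb of the clusters, 8.89% of the 24h coverage and 14.1% of the H2A.Z coverage (3.8 kb without the regions of the lowest score). Of this, 9.0 kb lay in Hoxc, 1.6 kb in Hoxb, 0.8 kb in Hoxd and 0 in Hoxa. The part in Hoxc was 57.4% of the H2A.Z coverage of that cluster, where 24h regions covered 44.4% of all bases. Most of it, 5600 bases, was a single H2A.Z region of the lowest score, chr15:102942201-102947800. Without the regions of the lowest score, 5.24% of the H2A.Z coverage of the 4 clusters was shared with 24h. Hoxc11 was the gene where both were high, at 95.4% in H2A.Z and 100% at 24h. At 5d the shared length was 6.6 kb, all of it in Hoxc (0.8 kb without the regions of the lowest score). The H2A.Z cells were wild-type, female and primary and the others were an immortalized male knockout line, so these differences and the marks cannot be told apart.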

How the data were processed

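Per the labels' protocols, the samples were native ChIP-seq and poly(A) RNA-seq libraries. The RNA files deposited by the authors hold a raw count for each gene. Per the submitters' processing notes, STAR 2.5.2b, Bowtie 1.1.2, SICER 1.1 and the build GRCm38 were used. The deposited region lists give a score per region, whose reference is not given in the sources used here, and another column with a running number (unit: other, not a measurement). Of the strand columns, that with 96.6 to 96.9% of stranded counts was used. Rows that name no gene held 21.2 to 23.1% of reads and were left out. For RNA the package edgeR, version 4.0.16 under R 4.3.3, was run on all 9 libraries with time as the only term. It used filterByExpr for low counts, TMM scaling and the quasi-likelihood test, with Benjamini-Hochberg adjustment, and was tested on simulated data. DESeq2 1.42.0 was an alternative. Same-numbered libraries deviated together in 0 of 9 pairs (correlation over 0.1), so numbers were not taken as pairs. No libraries were duplicates.

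Regions (windows of 200, gap 800, threshold 0.01) were merged (numpy 2.4.6 and pandas 2.3.3, Python 3.11.15) and intersected with gene spans of RefSeq GRCm38.p6. The measure is the share of a span's bases that regions take up, in percent. Genes absent from the promoter table took their cluster's strand. Figures used matplotlib 3.10.9. The read depth behind regions is unknown. The input library was not used here. Named were all Hox genes, per library those called, genes with a change of 50 points in coverage, and up to 4 members of other lists with the smallest p. Ezh2, which GSK126 inhibits, was named outside this rule, as other Polycomb genes had a smaller p. Motifs, the microRNAs and the start windows shown were chosen after seeing the data. The members and lists were chosen with earlier results of these data known. Some genes counted in the totals are not reported here by name.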

Additional observations from a re-analysis of the deposited data

Results flagged for a closer look

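The change at 24h and that at 6h, both against the shared 0h libraries, differed by edgeR's test in 8 Hox genes, as log2 change at 24h minus log2 change at 6h. The difference was 0.19 for Hoxa7, 0.20 for Hoxb9, 0.71 for Hoxb13, 0.28 for Hoxc6, 0.26 for Hoxc8, 0.33 for Hoxc9, 0.50 for Hoxc10 and 0.62 for Hoxd9. It is the 24h against 6h comparison of the report seen from 0h, not further evidence. The cause was not tested.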

How the results depend on the processing

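Of the region results, leaving out the regions of the lowest score moved most, and ties meant that this took out 41.3 to 69.9% of a list. The 4 clusters together then stood at 2.68% at 0h, 10.45% at 6h, 20.2% at 24h, 18.2% at 5d, 26.9% with flavopiridol, 14.6% and 9.27% at 6h and 24h after GSK126 and 14.7% for H2A.Z. Covered genes then numbered 0 at 0h, 2 at 6h, and 3 and 3 after GSK126, and start windows touched by a region 0, 3, 6 and 2. With 80% of a gene as the minimum, covered genes numbered 1 at 0h, 2 at 6h, 4 at 24h, 3 at 5d, 4 with flavopiridol, 1 and 2 after GSK126 and 3 for H2A.Z. With 20%, they numbered 13 with flavopiridol, 13 at 6h after GSK126 and 16 for H2A.Z, and with 5 kb added on both sides 12 with flavopiridol and 2 for H2A.Z. Windows of 2 kb on both sides were touched in 14 genes at 6h and in 17 and 12 after GSK126. Without regions under 2 kb the clusters stood at 23.7% at 6h after GSK126 and 13.95% for H2A.Z. With the list called at W1000-G4000, 5d stood at 27.96% with 10 genes covered.

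In RNA, DESeq2 called 0 Hox genes higher at 6h. At 24h against 0h, 1 gene was called without the filter on low counts (1 lower, Hoxa5) and 1 with unstranded counts (1 higher, Hoxb2). Leaving out a library in turn gave 0 to 1 higher and 5 to 8 lower at 6h. With the replicate number as a block 8 genes were called at 6h, 0 at 24h against 0h and 8 from 6h to 24h, and Hoxb13 at 6h was lost (adjusted p = 0.0551, edgeR). No RNA call of a single Hox gene changed direction under the alternatives run. Among the region results, some orders of libraries turned without the regions of the lowest score. In Hoxc these included 6h and 24h, 24h with and without flavopiridol, and 6h with and without GSK126, as given above. In Hoxb the order of 24h with and without flavopiridol turned. The causes were not tested.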
